A study of Mus musculus with 2 samples.

Results

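The homeostatic microglia genes *P2ry12*, *P2ry13*, *Cx3cr1*, *Csf1r*, *Gpr34*, *Siglech*, *Selplg*, *Tmem119* and *Sall1* were followed in nuclei of the mouse hippocampus by snRNA-seq, which counts RNA molecules nucleus by nucleus. They were taken by symbol and are 9 of the 32285 genes in the count matrices, and all 9 had unique molecular identifiers (UMIs) in both libraries. A UMI tags 1 captured RNA molecule, and levels are given as CPM, the UMIs of a gene scaled to 1000000 UMIs of the class of nuclei in question. One library was made from pooled hippocampi of PS19 males, which carry a mutant human tau transgene under the mouse prion protein promoter, with intact *Zbp1*. The other was made from pooled hippocampi of PZKO males, PS19 mice that lack *Zbp1*, a sensor of left-handed nucleic acids, and all mice were 9 months old. Both groups carried the tau transgene, so every value below is from tauopathy tissue. Each genotype has 1 library, so nothing checks a difference between replicates, and no test was made. Ratios and shares carry 95% intervals that cover counting error only. The nuclei were sequenced without a label for the animal, so differences between animals and between genotypes cannot be told apart.

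Microglia are the resident macrophages of the brain, and the genes described here make up much of the signature by which the surveying, homeostatic state is recognised. *P2ry12* and *P2ry13* encode receptors for ADP, with which microglia sense nucleotides leaking from damaged cells, and *Cx3cr1* encodes the receptor for the neuronal chemokine fractalkine. *Csf1r* encodes the receptor kinase for CSF1 and IL-34 on which microglia depend for survival, and *Gpr34* a receptor for lysophosphatidylserine. *Siglech* encodes a sialic acid-binding lectin that signals through the adaptor encoded by *Tyrobp*, *Selplg* the selectin ligand PSGL-1, and *Tmem119* a transmembrane protein widely used to tell microglia from other macrophages. *Sall1* encodes a zinc finger transcription factor that maintains microglial identity. In models of amyloid and tau disease, disease-associated microglia (DAM) are known to lower many of these genes while turning on others, among them *Itgax*, which encodes the integrin CD11c, and *Cst7*, which encodes cystatin F.

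Before filters, 47 barcodes occurred in both libraries. After filters, 9590 PS19 nuclei with 100571195 UMIs and 9307 PZKO nuclei with 152268056 UMIs were kept. Of these nuclei, 956 in PS19 (9.97%) and 763 in PZKO (8.20%) were called microglia from 10 marker genes, none of which is among the 9 genes. All 10 markers were detected in them. Their summed depth was 3277711 UMIs for PS19 and 3373379 for PZKO, with medians of 3303 and 4154 UMIs per nucleus. *Zbp1* was sparse in microglia, with 49 UMIs (14.9 CPM) in the PS19 library and 20 (5.93 CPM) in the PZKO library. The *Zbp1* UMIs left in PZKO do not check the label by themselves, because the deleted part of the gene is not given in the sources used here.

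The genes lie on 7 chromosomes of the mm10 assembly, and 3 of their promoters are shown here. *P2ry12* (chr3:59216272-59262871) and *P2ry13* (chr3:59207892-59210882) lie side by side on the minus strand, inside the gene *Med12l* on the opposite strand. *Tmem119* (chr5:113793729-113800516) and *Selplg* (chr5:113818536-113832644) are neighbours on the minus strand. *Gpr34* (chrX:13632089-13640858) lies inside *Cask* on the opposite strand. *Sall1* (chr8:89027235-89044162) and *Siglech* (chr7:55768178-55778925) overlap no other gene of the count matrices. The annotated span of *Cx3cr1* (chr9:119901616-120069879) is 168.3 kb long and covers several other genes on both strands. RefSeq promoters (GRCm38.p6, from 250 bases before to 50 bases after the start) were matched for 5 of the 9 genes, as 7 windows. The 3 shown belong to genes that were lower by more than 0.32 on the log2 scale in both libraries in microglia with DAM transcripts, as described further on. Capitals mark the letters GAGGAA or, read from the other strand, TTCCTC, the core bound by PU.1, the lineage factor of macrophages.
*P2ry12*, chr3:59262936-59263235, minus strand: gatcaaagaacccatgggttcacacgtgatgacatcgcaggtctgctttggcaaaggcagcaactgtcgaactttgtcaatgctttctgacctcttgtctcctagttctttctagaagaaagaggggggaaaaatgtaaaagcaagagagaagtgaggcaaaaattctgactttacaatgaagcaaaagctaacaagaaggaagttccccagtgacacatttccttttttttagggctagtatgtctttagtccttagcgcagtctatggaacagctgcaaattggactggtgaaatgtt
*P2ry13*, chr3:59210833-59211132, minus strand: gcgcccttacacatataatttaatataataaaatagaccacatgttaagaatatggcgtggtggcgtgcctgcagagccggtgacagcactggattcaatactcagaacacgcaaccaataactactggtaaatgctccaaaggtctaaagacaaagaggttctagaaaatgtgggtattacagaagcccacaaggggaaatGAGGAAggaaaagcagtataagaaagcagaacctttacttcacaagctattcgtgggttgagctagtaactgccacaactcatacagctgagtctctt
*Siglech*, chr7:55767934-55768233, plus strand: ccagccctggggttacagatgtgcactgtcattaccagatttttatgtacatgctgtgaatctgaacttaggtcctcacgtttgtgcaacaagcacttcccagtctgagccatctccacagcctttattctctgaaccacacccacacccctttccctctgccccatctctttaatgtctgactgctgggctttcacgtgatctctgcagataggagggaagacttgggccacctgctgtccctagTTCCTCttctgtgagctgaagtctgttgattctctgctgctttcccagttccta
The motif was searched on both strands and was present in 2 of the 7 windows, those of *P2ry13* and *Siglech*. Among all 32851 RefSeq promoters of the same length, 28.3% held it, a share close to that of these windows. By gene, 2 of the 5 held it, and so few windows and genes cannot be told apart from promoters in general.

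Across the classes of nuclei, all 9 genes were highest in microglia or in the myeloid and lymphoid cells next to them. Microglia held 3.26% of all UMIs in PS19 and 2.22% in PZKO, but 75.5% and 75.7% of the UMIs of the 9 genes together. Each gene was set against the named class with the next highest level among classes of at least 50 nuclei, macrophages left aside. The median gene was 28.9-fold higher in microglia in PS19 and 28.3-fold higher in PZKO, *P2ry12* in both cases. Across the alternative settings this fold lay between 11.4 (no removal of doublets) and 117 (an ambient profile subtracted) in PS19, and between 15.05 and 91.7 under the same settings in PZKO. In PS19, 7 of the 9 genes were at least 10-fold higher in microglia than in every other such class, against 3.58% of all genes with at least 100 microglial UMIs. In PZKO, 6 of the 9 genes passed the same mark, against 3.74% of all genes.

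**Figure D1:**
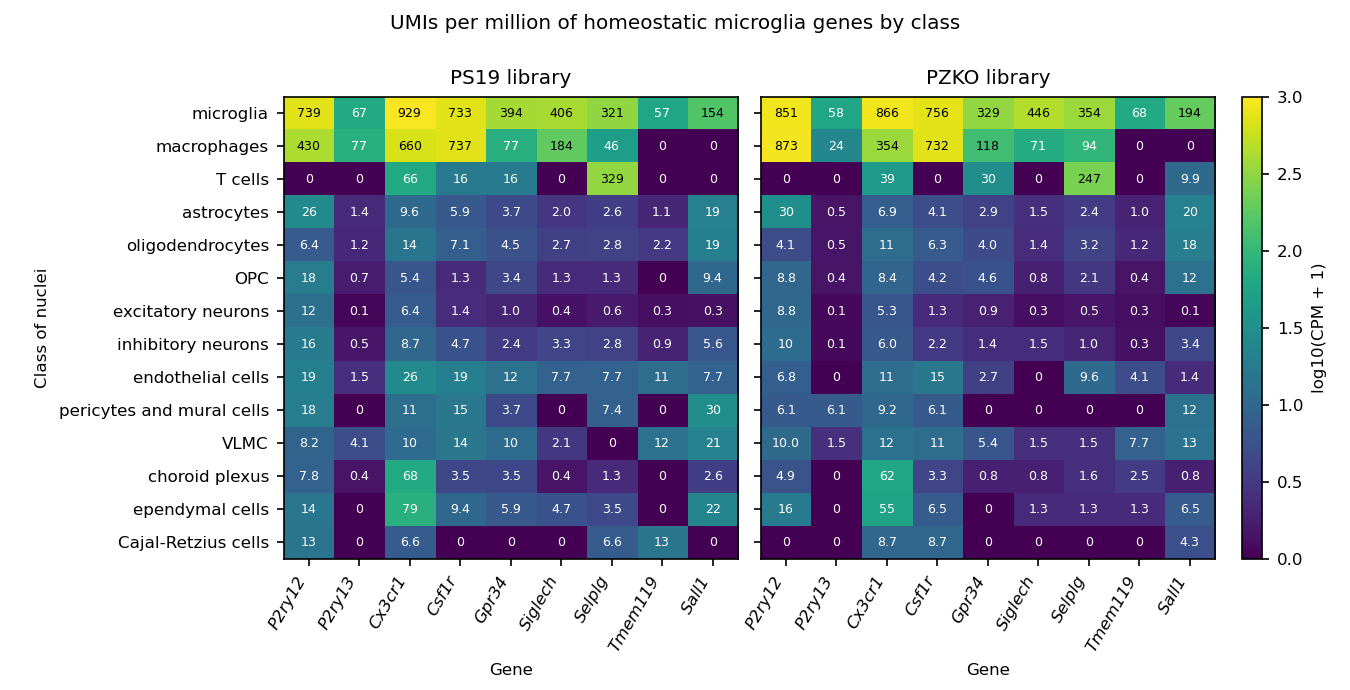
Level of each homeostatic microglia gene (columns) in each class of nuclei (rows) for the PS19 and PZKO libraries; the number in each cell is the CPM and the colour its log10(CPM + 1). The microglia row is high for all 9 genes, and *Csf1r* is about as high in the 20 and 12 macrophages. *P2ry12* is about as high in PZKO macrophages but lower in PS19 macrophages, at 430 against 739 CPM. *Selplg* is high in T cells, and *Cx3cr1* stands out in choroid plexus and ependymal cells. Outside these cells *Sall1* is highest in pericytes and mural cells in PS19 and in astrocytes in PZKO.

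The genes differed in how strictly they were kept to microglia. With macrophages left aside, *Siglech* had the highest ratio in both libraries. It had 406 CPM in PS19 microglia and at most 7.72 CPM in the next class, endothelial cells, a ratio of 52.6 (interval 22.5 to 162). In PZKO it had 446 CPM in microglia and 1.53 CPM in astrocytes, a ratio of 291 (181 to 501). *Csf1r*, *Gpr34* and *Selplg* followed, at 39.5-fold, 31.9-fold and 41.5-fold over the next class in PS19 and 50.2-fold, 61.3-fold and 36.9-fold in PZKO. The intervals of these 3 genes overlap within each library, so no order among them can be read. The interval of *Siglech* overlaps theirs in PS19 and lies above them in PZKO. The PZKO ratio was taken over astrocytes, as *Siglech* had 0 UMIs in endothelial cells and in pericytes and mural cells. Read as up to 3 UMIs, these zeros allow 4.11 and 9.22 CPM, more than the level in astrocytes. A place of *Siglech* above the other genes in PZKO is therefore not shown.

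*Tmem119* and *Sall1* had the lowest ratios in PS19, and *Tmem119*, *P2ry13* and *Sall1*, at 8.86, 9.50 and 9.71, in PZKO, with intervals that overlap. *Tmem119*, at 56.7 CPM in PS19 microglia, was 4.59-fold (2.07 to 12.7) over vascular leptomeningeal cells (VLMC), where it rested on 6 UMIs. In PZKO it was 8.86-fold (4.73 to 18.7) over VLMC, where it rested on 10 UMIs. *Sall1* in PS19 was 5.21-fold (2.62 to 12.1) over pericytes and mural cells, where it had 29.5 CPM on 8 UMIs, and it had 22.4 CPM in ependymal cells (19 UMIs) and 20.6 CPM in VLMC (10 UMIs). The larger glial classes gave more UMIs, with 19.3 CPM in astrocytes (156 UMIs) and 18.8 CPM in oligodendrocytes (174 UMIs) of PS19, which is 12.5% and 12.2% of its microglial level. In PZKO astrocytes and oligodendrocytes were at 10.3% and 9.45% of the microglial level. The median gene stood at 1.04% and 1.15% of its microglial level in these PS19 classes, and the gene next to *Sall1* at 3.46% in astrocytes (*P2ry12*) and 3.80% in oligodendrocytes (*Tmem119*). Excitatory neurons, at 0.35 CPM in PS19 and 0.13 CPM in PZKO, had almost no *Sall1*.

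*P2ry12* and *Cx3cr1* also had UMIs in other classes, *P2ry12* most clearly in astrocytes and *Cx3cr1* in choroid plexus and ependymal cells. *P2ry12* reached 25.6 CPM in PS19 astrocytes and 30.04 CPM in PZKO astrocytes, 3.46% and 3.53% of the microglial level. *P2ry13*, its neighbour on the chromosome, was at 1.36 and 0.45 CPM there (11 and 5 UMIs), 2.01% and 0.77% of its own microglial level. The PS19 astrocyte interval of *P2ry12* (22.2 to 29.3 CPM) overlapped that of smaller classes, such as endothelial cells (18.5 CPM on 12 UMIs, 9.58 to 32.4). *Med12l*, which spans both genes on the opposite strand, had 125 CPM in PS19 astrocytes and 170 CPM in PS19 excitatory neurons, and its part in the *P2ry12* counts was not tested. *Cx3cr1* had 67.6 CPM in choroid plexus and 79.0 CPM in ependymal cells of PS19, and 62.2 and 54.8 CPM in PZKO. Among the genes inside its long annotated span, *Ttc21a* on the opposite strand had 182 CPM in choroid plexus and 696 CPM in ependymal cells of PS19 but 0.92 CPM in microglia. In PZKO, *Ttc21a* had 200 CPM in choroid plexus, 760 CPM in ependymal cells and 0.30 CPM in microglia, and whether UMIs of this locus were assigned to *Cx3cr1* was not tested.

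Macrophages and T cells, the other leukocytes of the tissue, shared some of the genes and lacked others. The 20 PS19 macrophages and 12 PZKO macrophages had 737 and 732 CPM of *Csf1r*, next to 733 and 756 CPM in microglia. *P2ry12* was at 430 CPM in PS19 macrophages (interval 286 to 621) and at 873 CPM in PZKO macrophages (615 to 1204). *Siglech* was at 184 CPM in PS19 macrophages (12 UMIs, 95.2 to 322) and 70.8 CPM in PZKO macrophages (3 UMIs, 14.6 to 207). Its microglial levels were 406 and 446 CPM, so its ratio over macrophages was far smaller than over the other classes. *Cx3cr1* was at 660 and 354 CPM in macrophages (43 and 15 UMIs), and *P2ry13* at 76.8 and 23.6 CPM (5 UMIs and 1 UMI). *Sall1* and *Tmem119* had 0 UMIs in macrophages of both libraries. Read as up to 3 UMIs, this allows 46.1 CPM in PS19 and 70.8 CPM in PZKO, and the 95% intervals reach 56.6 and 87.1 CPM. These limits lie well below the microglial 154 and 194 CPM of *Sall1*. They lie close to or above the 56.7 and 67.9 CPM of *Tmem119*, whose absence was therefore not detectable at this depth. In T cells, *Selplg* was at 329 CPM in PS19 (20 UMIs, interval 201 to 508 CPM) and at 247 CPM in PZKO (25 UMIs, 160 to 364 CPM), against 321 and 354 CPM in microglia. *P2ry12*, *P2ry13*, *Tmem119* and *Siglech* had 0 UMIs in the T cells of both libraries. Of the selectins that bind PSGL-1, *Selp* had 15 UMIs and *Sele* 7 UMIs in PS19 endothelial cells, against 0 and 1 UMI in PZKO endothelial cells.

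Levels are also given per length, since nuclear RNA can yield more UMIs from longer genes. Whether it did so here was not tested, so the order of the genes below holds for this scale only. *Csf1r* (chr18:61100598-61132149, plus strand), the remaining gene, overlaps *Hmgxb3* on the opposite strand. Per kb of annotated span, *Gpr34* was highest in PS19 microglia at 45.0 CPM per kb and *Siglech* in PZKO microglia at 41.5 CPM per kb. *Csf1r*, *Selplg* and *P2ry13* lay between 19.5 and 25.1 CPM per kb in both libraries, and *P2ry12* at 15.9 and 18.3 CPM per kb. *Sall1*, *Tmem119* and *Cx3cr1* were lowest, *Cx3cr1* at 5.52 and 5.15 CPM per kb of a span that other genes share.

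Single microglial nuclei held few UMIs of each gene, so nuclei were thinned to 1500 UMIs before shares were compared, which left out 48 PS19 and 17 PZKO nuclei. *Cx3cr1* was then detected in 67.5% of PS19 and 67.2% of PZKO microglia, *Csf1r* in 64.2% and 65.6%, and *P2ry12* in 56.5% and 58.9%. *Gpr34*, *Siglech* and *Selplg* were detected in 33.8% to 42.8% of nuclei, *Sall1* in 19.4% and 24.1%, and *Tmem119* and *P2ry13* in 8.98% to 9.52%. Before thinning, *P2ry12* was detected in 73.3% and 81.3% of microglia and in 22.1% and 22.8% of excitatory neurons. The median depth of these neurons before thinning was 22589 and 29901.5 UMIs. At 1500 UMIs, 1.71% and 1.57% of them held a *P2ry12* UMI, 0.80% and 1.05% a *Cx3cr1* UMI and at most 0.29% a UMI of any other of the 9 genes. Some shallower classes had higher shares at 1500 UMIs, so these neurons do not give a background for all classes. *P2ry12* was detected in 3.33% and 4.72% of astrocytes, *Sall1* in 2.87% and 2.86% of oligodendrocytes, and *Csf1r* in 2.985% of endothelial cells in both libraries. At least 3 of the 9 genes were seen in 69.7% of PS19 and 70.0% of PZKO microglia, and none in 4.41% and 2.82%.

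To see how the homeostatic genes behaved in nuclei with a DAM transcript, microglia were divided by whether they held at least 1 UMI of *Itgax* or *Cst7*. That was so for 377 of 956 PS19 microglia (39.4%) and 258 of 763 PZKO microglia (33.8%). After thinning to 1500 UMIs the shares were 23.9% (21.2 to 26.8) in PS19 and 15.8% (13.3 to 18.6) in PZKO, while other classes of at least 50 nuclei had 0% to 1.49%. Nuclei with such a UMI were also deeper, with medians of 3893 against 2965 UMIs in PS19 and 5184.5 against 3826 UMIs in PZKO.

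All 9 homeostatic genes were lower in microglia with an *Itgax* or *Cst7* UMI than in microglia without, in both libraries. The 9 genes summed to 4249 CPM without and 3273 CPM with such a UMI in PS19, and to 4502 and 3060 CPM in PZKO. The median log2 ratio was −0.43 in PS19 and −0.70 in PZKO, whereas the median over all genes with at least 100 UMIs was −0.01 and −0.02. A gene is counted as lower or higher here when its log2 ratio was beyond the mark of 0.32 in that direction. In PS19, 5 of the 9 genes were lower by this mark, against 12.6% of all genes, and 0 were higher, against 11.6%. In PZKO, 7 of the 9 were lower, against 15.3%, and 0 were higher, against 13.7%. When nuclei with a *Cst7* UMI were set against nuclei with neither gene, the median was −0.25 in PS19, and *Cx3cr1* and *Gpr34* were no longer lower there, at 0.05 and 0.002. With at least 2 *Itgax* and *Cst7* UMIs against none, the PS19 median was −0.72.

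**Figure D2:**
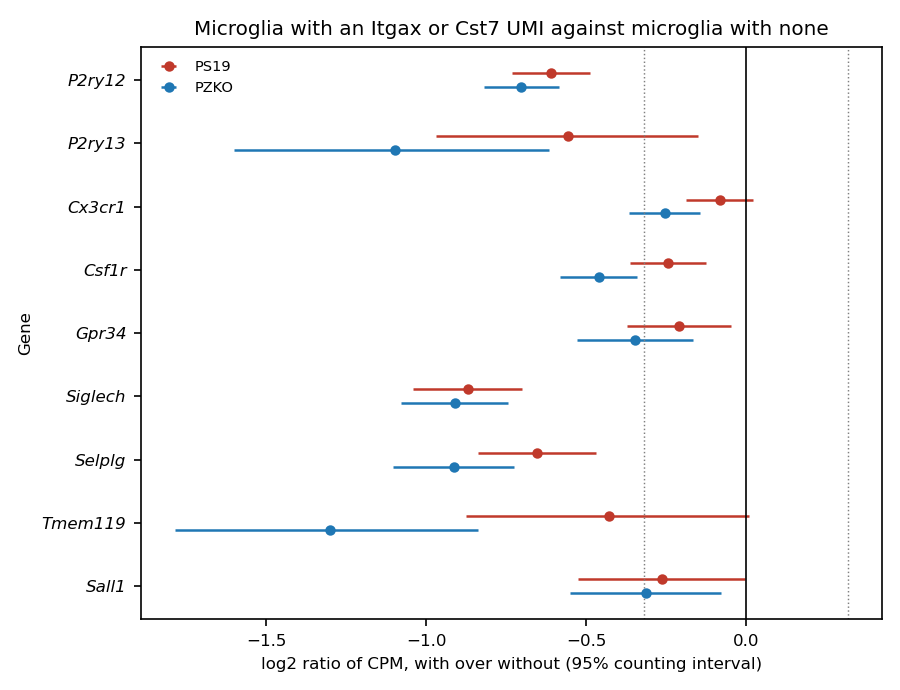
Log2 ratio of CPM in microglia with at least 1 *Itgax* or *Cst7* UMI over microglia with none (x axis) for each homeostatic gene (y axis), in PS19 (red) and PZKO (blue); points are ratios, bars 95% counting intervals, and dotted lines mark a log2 ratio of 0.32 either way. All 18 points lie left of 0, from −0.08 for *Cx3cr1* in PS19 to −1.30 for *Tmem119* in PZKO.

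*Siglech* and *Selplg*, the lectin and the selectin ligand, were among the lowest in both libraries. *Siglech* was at 513 CPM without and 281 CPM with a DAM UMI in PS19, a log2 ratio of −0.87 (−1.04 to −0.70), and at 550 and 292 CPM in PZKO, a ratio of −0.91 (−1.08 to −0.74). *Selplg* was at 385 and 245 CPM in PS19 (−0.65, −0.84 to −0.47) and at 436 and 231 CPM in PZKO (−0.91, −1.10 to −0.73). For both genes the intervals with and without a DAM UMI do not overlap in either library.

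The ADP receptors were lower as well. *P2ry12* was at 878 and 576 CPM in PS19 (−0.61, −0.73 to −0.49) and at 1007 and 619 CPM in PZKO (−0.70, −0.82 to −0.59). *P2ry13*, with 81 and 47 UMIs in the nuclei with a DAM UMI, was at 79.0 and 53.8 CPM in PS19 (−0.56) and at 74.3 and 34.7 CPM in PZKO (−1.10). The purine receptors thus went the same way, although *P2ry13* was measured far less closely.

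The receptors for fractalkine, CSF1 and lysophosphatidylserine differed less between these groups of nuclei. *Cx3cr1* was at 953 and 901 CPM in PS19, a log2 ratio of −0.08 whose interval (−0.19 to 0.02) includes 0, and at 926 and 776 CPM in PZKO (−0.25, −0.36 to −0.14). *Csf1r* was at 789 and 666 CPM in PS19 (−0.24) and at 849 and 617 CPM in PZKO (−0.46). *Gpr34* was at 421 and 364 CPM in PS19 (−0.21) and at 360 and 283 CPM in PZKO (−0.35). Of these receptors, none passed the mark in PS19, and *Csf1r* and *Gpr34* did in PZKO.

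*Tmem119* and *Sall1* also had lower levels, with intervals that overlap in PS19 but, before thinning, not in PZKO. *Tmem119* was at 64.4 and 47.8 CPM in PS19 (−0.43, −0.88 to 0.01) and at 89.1 and 36.2 CPM in PZKO (−1.30, −1.79 to −0.84). *Sall1* was at 166 and 139 CPM in PS19 (−0.26, −0.53 to −0.003) and at 211 and 170 CPM in PZKO (−0.31, −0.55 to −0.08), within the mark in both. Before thinning, the intervals of *Siglech* lay wholly below those of *Sall1* in both libraries.

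With more DAM UMIs per nucleus the levels of some genes kept going down and those of others did not. *Siglech* in PS19 was at 513, 327, 274 and 205 CPM in nuclei with 0, 1, 2 and at least 3 *Itgax* and *Cst7* UMIs, and in PZKO at 550, 338, 328 and 185 CPM. *P2ry12* in PS19 was at 878, 685, 482 and 460 CPM, and in PZKO at 1007, 650, 583 and 606 CPM. *Cx3cr1* in PS19 was at 953, 939, 844 and 880 CPM, and in PZKO at 926, 753, 917 and 675 CPM, with no steady order. *Sall1* in PS19 was at 166, 176, 108 and 99.1 CPM, and in PZKO at 211, 178, 194 and 132 CPM. Its levels at 3 or more such UMIs rested on 42 and 50 *Sall1* UMIs. The groups held 579, 195, 85 and 97 PS19 nuclei and 505, 128, 69 and 61 PZKO nuclei, and their median depth went up from 2965 to 4238 UMIs in PS19 and from 3826 to 6096 UMIs in PZKO.

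**Figure D3:**
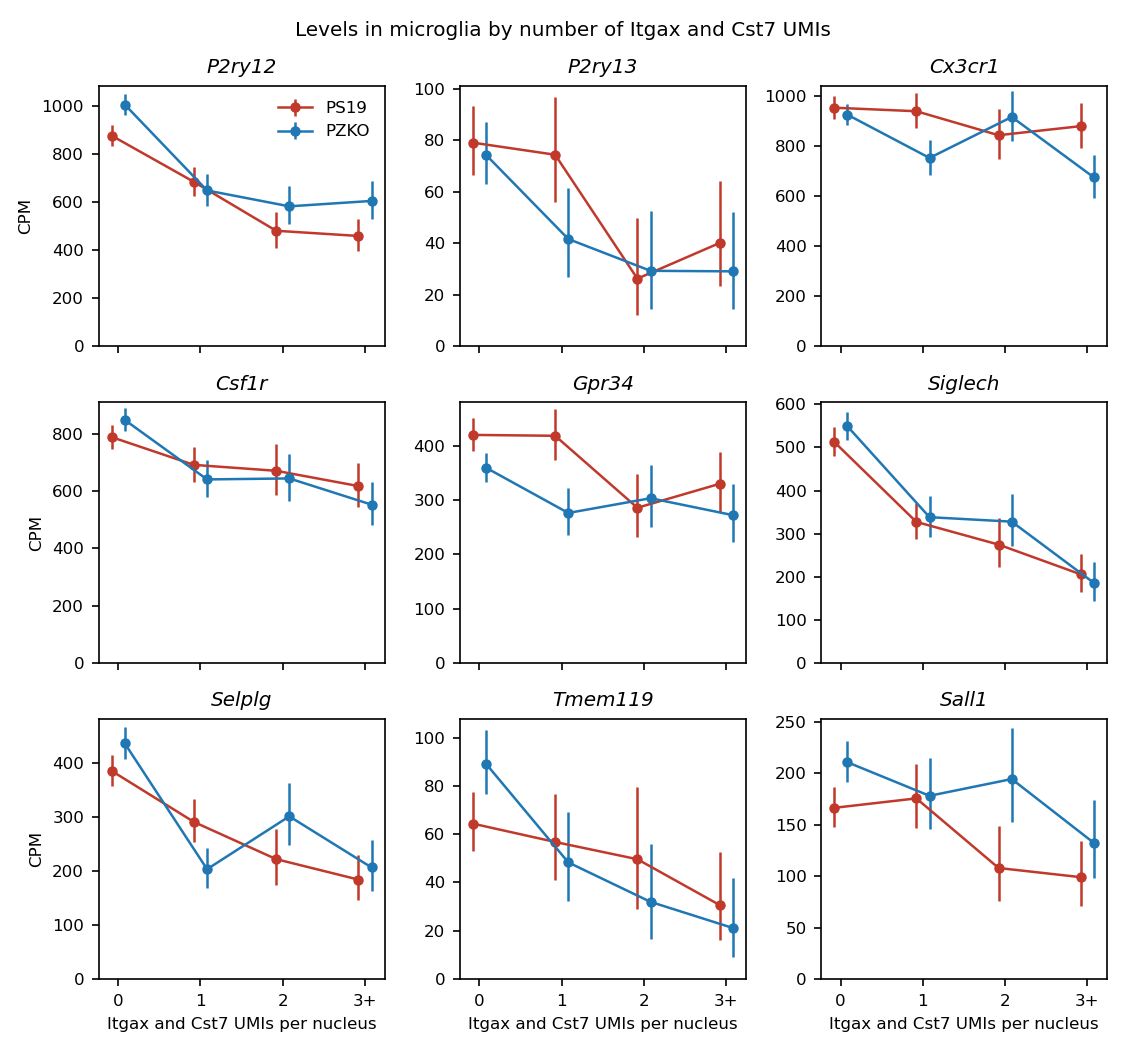
CPM of each homeostatic gene in microglia (y axis, from 0) by the number of *Itgax* and *Cst7* UMIs in the nucleus (x axis; 3+ means at least 3), for PS19 (red) and PZKO (blue); bars are exact Poisson 95% intervals of the summed UMIs. *Siglech* goes from 513 to 205 CPM in PS19 and from 550 to 185 CPM in PZKO, while *Cx3cr1* stays between 675 and 953 CPM.

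Before depth was made equal, some genes were more sharply lower in PZKO than in PS19. The ratio was lower in PZKO by 0.87 on the log2 scale for *Tmem119* (interval of the difference −1.49 to −0.25), by 0.22 for *Csf1r* (−0.38 to −0.05), by 0.17 for *Cx3cr1* (−0.32 to −0.02) and by 0.26 for *Selplg* (−0.52 to −0.001). For the other 5 genes the interval of the difference included 0. When all nuclei were thinned to 1500 UMIs before they were divided, the median log2 ratio was −0.56 in PS19 and −0.49 in PZKO. *Tmem119* was then at −0.50 and −0.61, and *P2ry12* at −0.81 in PS19 and −0.43 in PZKO. All 9 genes remained below 0 in both libraries after thinning, with *Gpr34* in PZKO at −0.04 (−0.48 to 0.38).

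Other genes of the same division of nuclei were read beside them. In the list of 19 measured DAM genes, 17 remain when *Itgax* and *Cst7*, which made the groups, are left out. Of these, 16 were higher past the mark in PS19 (median log2 ratio 0.70), against 11.6% of all genes, and 11 in PZKO (median 0.52), against 13.7%. *Spp1* (osteopontin) was at 82.4 and 258 CPM in PS19, *Lpl* (lipoprotein lipase) at 130 and 291 CPM, and *Csf1*, a ligand of the *Csf1r* receptor, at 176 and 329 CPM. Among 22 further homeostatic genes, 3 of the 19 with enough UMIs were lower past the mark in PS19 (*Maf*, *Cd33* and *Ltc4s* were at −0.37, −0.47 and −0.75), a share near the 12.6% of all genes, and 7 of 21 in PZKO, against 15.3%. The genes lower in PZKO included *Slc2a5* (a fructose transporter, −1.81), *Adgrg1* (an adhesion receptor, −1.75) and *Ltc4s* (leukotriene C4 synthase, −1.22). In PS19, the genes left uncounted for having fewer than 100 UMIs were *Slc2a5*, *Adgrg1* and *Crybb1*. They were lower past the mark there too, at −1.52, −0.74 and −1.50. The PS19 and PZKO counts thus rest partly on this minimum. *Tgfbr1*, *Mef2a* and *Mef2c* were within the mark in both libraries, between −0.12 and 0.07. The median of this wider list was −0.12 in PS19 and −0.20 in PZKO, closer to 0 than that of the 9 genes.

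Interferon genes were higher in PZKO microglia with an *Itgax* or *Cst7* UMI. Of 8 interferon genes with at least 100 UMIs, 8 were higher past the mark there (median log2 ratio 1.01), against 13.7% of all genes. In PS19, 0 of the 4 with enough UMIs were past the mark (median 0.04), against 11.6% of all genes, and the difference between the libraries was not tested. At least 3 interferon UMIs were present in 54.3% of the PZKO nuclei with a DAM UMI and 33.1% of those without, and in 30.2% and 22.3% in PS19. These shares were not thinned, and nuclei with a DAM UMI were deeper in both libraries, as were PZKO microglia. The part of depth in these shares was not tested. Nuclei with at least 3 interferon UMIs were then left out, a cut also made without thinning. The homeostatic genes then had a median of −0.43 in PS19 and −0.74 in PZKO, as large as with those nuclei. *Zbp1* itself had 35 UMIs in PS19 microglia without and 14 UMIs with a DAM UMI, and 3 and 17 UMIs in PZKO.

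Between genotypes, the homeostatic genes in microglia as a whole differed little. The median log2 ratio of PZKO over PS19 was 0.14, against −0.02 over 8499 genes with at least 100 UMIs, and lay between 0.06 and 0.21 across the alternative settings. Only *Sall1* passed the mark, so 1 of the 9 genes was higher, against 8.5% of all genes, and 0 were lower, against 14.8%. The sums over the 9 genes were 3801 CPM in PS19 and 3923 CPM in PZKO.

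**Figure D4:**
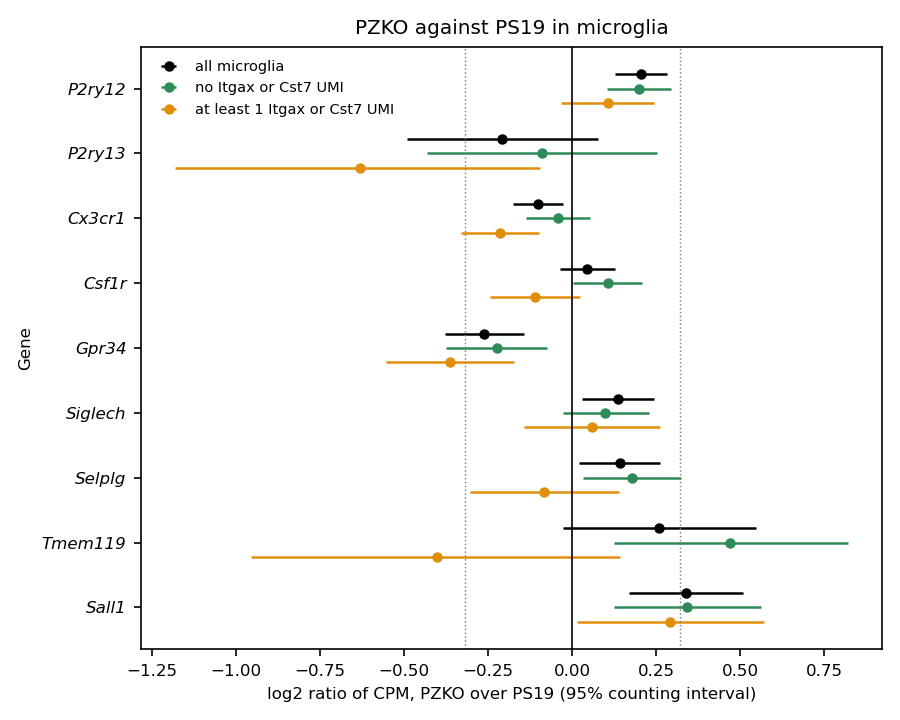
Log2 ratio of CPM in PZKO over PS19 microglia (x axis) for each homeostatic gene (y axis), in all microglia (black), in those with no *Itgax* or *Cst7* UMI (green) and in those with at least 1 (orange); bars are 95% counting intervals and dotted lines mark a log2 ratio of 0.32 either way. *Sall1* lies right of 0 in all 3 sets of nuclei and *Gpr34* left of 0, while *Tmem119* changes side between the green point at 0.47 and the orange point at −0.40. Nuclei were not thinned here, and PZKO nuclei were deeper in each set.

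*Sall1* was at 154 CPM in PS19 and 194 CPM in PZKO (504 and 656 UMIs), a log2 ratio of 0.34 (0.17 to 0.51). *P2ry12* was at 739 and 851 CPM (0.20, 0.13 to 0.28), *Siglech* at 406 and 446 CPM (0.14, 0.03 to 0.24) and *Selplg* at 321 and 354 CPM (0.14, 0.02 to 0.26). These 4 genes were higher in PZKO beyond counting error, by small factors. *Gpr34*, at 394 and 329 CPM (−0.26, −0.38 to −0.14), and *Cx3cr1*, at 929 and 866 CPM (−0.10, −0.18 to −0.03), were lower. *Tmem119* was at 56.7 and 67.9 CPM (0.26, −0.03 to 0.55), *P2ry13* at 67.4 and 58.4 CPM (−0.21, −0.49 to 0.08) and *Csf1r* at 733 and 756 CPM (0.05, −0.04 to 0.13), with intervals that include 0. After thinning to 1500 UMIs, the intervals of *P2ry12* (0.12, −0.01 to 0.25) and *Sall1* (0.21, −0.07 to 0.49) included 0 as well, while *Gpr34* was at −0.46 (−0.65 to −0.27).

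Within the microglia with no *Itgax* or *Cst7* UMI, the median over the 9 genes was 0.11, and 0.05 to 0.22 across the alternative settings. *Tmem119* (64.4 and 89.1 CPM, 0.47) and *Sall1* (166 and 211 CPM, 0.34) were higher past the mark, 2 of 9 genes against 9.72% of all genes, and 0 of 9 were lower, against 14.4%. Within the microglia with such a UMI, the median was −0.11, and ranged from −0.03 with an ambient profile subtracted to −0.33 without nuclei holding at least 3 interferon UMIs. There 3 of 9 genes were lower, *P2ry13* (−0.63), *Tmem119* (−0.40) and *Gpr34* (−0.36), against 15.4% of all genes, and 0 were higher, against 10.8%. *Tmem119* thus lay on opposite sides of 0 in the nuclei with and without DAM UMIs, though its interval among those with one was −0.96 to 0.14 on 72 and 49 UMIs. These nuclei were not thinned, and PZKO nuclei were deeper, with medians of 3826 against 2965 UMIs without and 5184.5 against 3893 UMIs with a DAM UMI. After thinning, as given above, the *Tmem119* ratios with over without a DAM UMI were close in the libraries, so the change of side may not hold at equal depth. *Sall1* was higher in PZKO in both groups of nuclei, at 0.34 and 0.29, and *Gpr34* lower in both, at −0.22 and −0.36.

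The DAM and interferon genes differed more between the genotypes. In all microglia, 13 of 19 DAM genes were lower past the mark in PZKO and 0 were higher (median −0.50, with 14.8% and 8.5% of all genes past it), among them *Apoe* (3289 and 1319 CPM), *Spp1* (163 and 37.9 CPM), *Cd63* (244 and 118 CPM), *Itgax* (180 and 126 CPM) and *Cst7* (62.2 and 35.3 CPM). All 8 interferon genes with enough UMIs were higher (median 0.93), among them *Ifit2* (22.9 and 71.2 CPM) and *Rsad2* (3.97 and 34.4 CPM). Of the 22 further homeostatic genes, 3 were higher, 0 were lower, and the median was 0.05, nearer to 0 than that of the 9 genes. *Olfml3* was at 102 and 83.0 CPM (−0.30) and *Adgrg1* at 28.1 and 37.4 CPM (0.41). The lineage factors *Spi1*, which encodes PU.1, *Irf8* and *Runx1* were within the mark (−0.14, −0.02 and 0.11), and *Smad3*, a transducer of TGF-beta, was at 145 and 201 CPM (0.47).

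**Figure D5:**
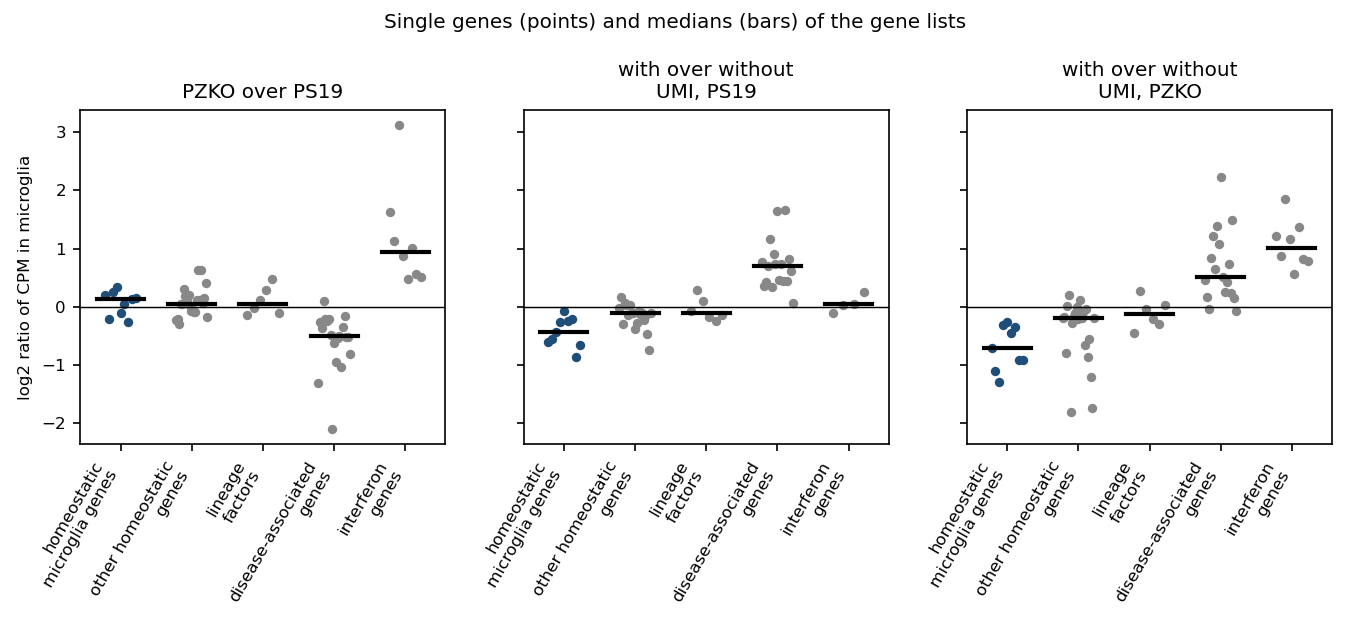
Log2 ratio of CPM in microglia (y axis) for the single genes of 5 lists (points) with the median of each list (black bar), for PZKO over PS19 and for nuclei with over without an *Itgax* or *Cst7* UMI in each library; *Itgax* and *Cst7* are left out of the last 2 panels. The 9 homeostatic genes (dark blue) have medians of 0.14, −0.43 and −0.70, and the DAM genes medians of −0.50, 0.70 and 0.52.

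The ligands of the receptors came partly from microglia and partly from other cells. *Cx3cl1*, which encodes fractalkine, had 54.2% of its PS19 UMIs and 69.1% of its PZKO UMIs in excitatory neurons, where it was at 81.2 and 94.97 CPM. These shares are to be read beside the size of the class, which held 43023262 of 100571195 UMIs in PS19 and 82023110 of 152268056 in PZKO. Other classes were not far off, with 80.1 and 76.3 CPM in unnamed nuclei and 61.8 and 101 CPM in endothelial cells. *Il34* was at 19.6 and 20.4 CPM in excitatory neurons and at 752 CPM in pericytes and mural cells of PS19. *Csf1* was at 246 CPM in PS19 and 212 CPM in PZKO microglia, and at 156 and 133 CPM in oligodendrocytes. *Tyrobp*, whose product couples *Siglech* to signaling, was at 166 and 130 CPM in microglia (log2 ratio −0.36, −0.54 to −0.17), opposite in direction to *Siglech*.

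Markers of other cells and signs of RNA quality in the microglia also differed between the groups, and their part in the results was not tested. Mitochondrial UMIs made up 0.88% of microglial UMIs in PS19 and 0.61% in PZKO, and ribosomal protein genes 1.005% and 0.745%. The 9 oligodendrocyte markers summed to 1043 CPM in PS19 and 861 CPM in PZKO microglia, the 9 astrocyte markers to 876 and 863 CPM and the 8 excitatory markers to 274 and 224 CPM. The 8 choroid plexus markers summed to 812 and 103 CPM, with *Otx2* and *Slc4a5* at 0 in PS19. In the nuclei without and with a DAM UMI, the oligodendrocyte markers summed to 1175 and 888 CPM in PS19 and to 903 and 797 CPM in PZKO. Of 8 macrophage markers, *Lyve1* was at 0 in both libraries and *Cd163* in PS19, and the sums were 206 and 166 CPM in all microglia. In the nuclei without and with a DAM UMI they were 202 and 210 CPM in PS19 and 167 and 165 CPM in PZKO, nearly level. The 7 T cell markers summed to 1.52 and 2.96 CPM.

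The genes whose pattern over 30 points, the classes and unnamed nuclei of both libraries, was most like the mean of the 9 genes were *Havcr2* (Pearson r = 0.95), *Gm46224* (0.94), *Tifab* (0.94), *Cd180* (0.93) and *Lgmn* (0.93), out of 6046 genes. The points share libraries and differ in depth, so these correlations are descriptions. In the division of microglia these genes did not share a direction. *Cd180*, a receptor related to the toll-like receptors, was higher in the nuclei with a DAM UMI in both libraries (log2 ratios 0.45 and 0.49), whereas *Lgmn*, a lysosomal protease, was at −0.12 and −0.26.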

How the data were processed

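Snap-frozen hippocampi gave 1 single-nucleus 3′ library per genotype. Per the labels, the authors used Cell Ranger 7.0.1 on mm10, whereas the matrix headers name version 8.0.1, and the deposited values are whole-number UMI counts per gene and nucleus, not normalized. The labels and the statistical methods say that hippocampi were pooled, whereas the sequencing methods say that animals were processed separately. Nuclei below 600 UMIs or 300 genes, or above 5% mitochondrial UMIs, were left out. The nuclei with the highest doublet scores (Scrublet in scanpy 1.11.5) were removed at 0.8% per 1000 nuclei (876 in PS19, 821 in PZKO), because its automatic threshold marked 589 and 0. The PS19 library held 11469 nuclei and 116488513 UMIs (median 5642), the PZKO library 10920 nuclei and 171167884 UMIs (median 8342.5).

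Counts were scaled to 10000 per nucleus, and 2000 variable genes gave 30 principal components, clustered with leidenalg 0.10.2 at resolution 1. The homeostatic genes and the other gene lists, DAM and interferon genes among them, were kept out of the variable genes unless they were class markers. *Zbp1*, mitochondrial genes and sex-linked genes were kept out as well. The 35 clusters were named from marker lists, 7 stayed unnamed (1513 and 961 nuclei), and the thresholds for naming and for dividing the mixed immune cluster were set after the clusters were seen. UMIs were summed per class. Intervals are Clopper-Pearson for ratios and shares and Poisson for levels, and cover counting error only. Those for ratios were run on simulated Poisson counts, which hold no spread between nuclei, so that run does not show their coverage on these data. A count of 0 was read as up to 3 UMIs. The homeostatic genes, the other gene lists and *Itgax* and *Cst7* were chosen with earlier results of these data known. Named were the 9 genes, *Itgax*, *Cst7*, *Zbp1*, members of these lists and the 5 genes most alike in pattern; *Ttc21a* and *Hmgxb3* were chosen afterwards from their overlap. A few single genes of the lists are not reported here. Positions come from GENCODE M21. Alternatives included edgeR 4.0.16 TMM and DESeq2 1.42.0 scaling.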

Additional observations from a re-analysis of the deposited data

How the results depend on the processing

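With 1 library per genotype no alternative bears on the spread between animals. The medians over the 9 homeostatic genes kept their sign under all alternatives. The fold of microglia over the next class was 11.4 in PS19 and 15.05 in PZKO without removal of doublets, 18.3 and 22.5 under a stricter filter on nuclei, 20.96 in PZKO with no filter, 24.8 in PS19 as a mean over nuclei, and 117 and 91.7 after subtraction of an ambient profile. That subtraction removed 66.4% and 77.3% of the mean profile of all nuclei, sized on markers of other cell types. The median ratio with over without an *Itgax* or *Cst7* UMI in PZKO was −0.49 with nuclei thinned to 1500 UMIs and −0.54 for nuclei with a *Cst7* UMI against nuclei with neither gene. The median ratio of PZKO over PS19 among nuclei with a DAM UMI was −0.31 when these were the nuclei with a *Cst7* UMI. Leaving out nuclei with at least 3 interferon UMIs, a cut made without thinning, was an alternative chosen after seeing the data. It gave −0.33, and 0.22 among nuclei with no DAM UMI. In that alternative *Tmem119* was at 0.64, *Siglech* at 0.35 and *P2ry13* at 0.03 in all microglia, the last on the other side of 0. The share of genes past a log2 ratio of 0.32 between genotypes was 34.2% with a minimum of 20 UMIs, against 23.3% with 100. The other 84 medians and shares stayed within their counting interval, as did 377 values of single genes, while 28 moved further. The interval of a median over the 9 genes was that of the gene in the middle, which is wide where that gene is sparse. For the PS19 ratio with over without an *Itgax* or *Cst7* UMI it was that of *Tmem119*, −0.88 to 0.01. Staying within such an interval therefore does not show that a median is stable. The median of all genes moved by 0.03 under TMM and 0.04 under DESeq2 scaling. No paired analysis was possible because each genotype has 1 library.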
